A study of Homo sapiens with 31 samples.

Results

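Interferon-stimulated genes are the genes that cells switch on when an interferon reaches them, and a list of 48 of them was described here across 8 groups of Caco-2 cultures. A member was measured when a probe set of the array named that gene and no other, and the brightest one, by its mean over the 31 arrays, was used where there were several. By this rule 46 of the 48 members were measured, among 22395 genes in all, and STAT2 and TRIM25 were not analysed here. This rule for probe sets used gene names and mean brightness only, and no difference between groups. The list itself and the other gene lists used below were chosen with earlier results of these data known.

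Caco-2 is a human colorectal adenocarcinoma line that forms an enterocyte-like monolayer. The cells had been kept for 21 days either on Transwell inserts without flow or in a microfluidic gut-on-chip perfused at 100 µL/h, and the study asked how they responded in each system to 6 h with a metal-oxide nanomaterial. Titanium dioxide (TiO2) was given at 50 µg/mL in Transwell and 100 µg/mL in the chip, zinc oxide (ZnO) at 10 µg/mL in Transwell and 80 µg/mL in the chip, and flow was stopped during the exposure. Each nanomaterial had its own metal-free dispersion medium as control in each system, called TiO2-control and ZnO-control. The deposited doses were modelled as equal in both systems, per the labels. There were 4 arrays in each of the 8 groups except Transwell TiO2, which had 3. No label says that replicates came from separate cultures, so p-values measure the spread between these samples, which may be technical. All groups are 1 cell line grown with serum, and precision is limited by the few arrays of each group.

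Interferons act through receptors that activate the kinases JAK1, JAK2 and TYK2 and the STAT transcription factors. Type I and type III interferons bring a complex that holds STAT2 and IRF9 to the interferon-stimulated response element (ISRE), and type II interferon acts through the gamma-activated site (GAS). The products sense viral RNA, modify proteins with ISG15, block viral entry and replication, and load peptides onto class I molecules. Intestinal epithelium responds to type I, type II and type III interferons, and many of these genes also have a basal level set by transcription factors such as IRF1.

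Promoters of 9 members on which the results turn are printed to show these elements in place, 100 bases each, 5′ to 3′ on the strand of the gene, from RefSeq on GRCh38.p14. Promoter windows from 250 bases before to 50 bases after the annotated start were available for 36 of the 46 members. Windows were searched on both strands for the ISRE core, which is GAAA, any 2 bases and GAAA again (TTTC, any 2 bases and TTTC on the other strand), and for the GAS element TTCNNNGAA. Capitals mark the ISRE core in the first 8 sequences and the GAS element in the last, and overlapping cores run together. The stretches are chr1:1013347-1013446 for ISG15, chr10:89327827-89327926 for IFIT3, chr6:32853775-32853874 for TAP1, chr15:44711337-44711436 for B2M, chr14:94110586-94110685 for IFI27, chr4:88456969-88457068 for HERC5, chr11:320861-320960 for IFITM3, chr1:27672273-27672372 for IFI6 and chr5:132490844-132490943 for IRF1. TAP1, IFITM3, IFI6 and IRF1 lie on the minus strand.
ISG15: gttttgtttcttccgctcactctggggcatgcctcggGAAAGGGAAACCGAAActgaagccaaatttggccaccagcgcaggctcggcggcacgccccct
IFIT3: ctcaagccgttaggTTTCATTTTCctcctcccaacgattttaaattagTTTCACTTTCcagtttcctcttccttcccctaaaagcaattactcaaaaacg
TAP1: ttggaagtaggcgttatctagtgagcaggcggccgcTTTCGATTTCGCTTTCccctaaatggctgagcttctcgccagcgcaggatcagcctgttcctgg
B2M: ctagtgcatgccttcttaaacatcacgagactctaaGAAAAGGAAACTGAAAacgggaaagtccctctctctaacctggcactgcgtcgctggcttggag
IFI27: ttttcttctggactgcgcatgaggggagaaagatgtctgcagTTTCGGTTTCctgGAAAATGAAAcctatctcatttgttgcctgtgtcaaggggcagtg
HERC5: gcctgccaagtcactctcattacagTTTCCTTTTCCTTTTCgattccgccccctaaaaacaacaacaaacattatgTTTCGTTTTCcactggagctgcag
IFITM3: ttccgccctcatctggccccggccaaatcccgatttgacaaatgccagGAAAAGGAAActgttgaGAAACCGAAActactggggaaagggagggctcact
IFI6: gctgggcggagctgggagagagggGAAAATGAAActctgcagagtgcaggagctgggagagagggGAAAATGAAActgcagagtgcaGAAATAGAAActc
IRF1: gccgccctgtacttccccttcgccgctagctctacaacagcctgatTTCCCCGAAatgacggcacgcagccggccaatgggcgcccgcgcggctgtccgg

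An ISRE core lay in 21 of the 36 member promoters (58.3%), against 1255 of 35116 promoters in the RefSeq table (3.57%). A GAS element lay in 8 of the 36 (22.2%), against 7.66% of all promoters. Both elements lay in 4 member promoters, and in 3 of them they overlapped. ISG15, IFIT3, TAP1, B2M, IFI27, HERC5, IFITM3 and IFI6 each held at least 2 cores in the stretch shown. IRF1 held the GAS element and no ISRE core. A match is a description of letters and not a measured binding site, and members were named as interferon targets, so their share of ISRE cores describes the list.

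The arrays fell apart by culture system first. A first principal component with 42.4% of the variance had chip arrays at -53.5 to -21.5 and Transwell arrays at 31.4 to 42.2. In the TiO2 set of the chip the arrays numbered 4 stood apart on the third component, where the exposed array (-14) lay beside the other controls (-19.4 to -14.9) and the control array (7.81) lay towards the other exposed arrays (16.7 to 20.1). Results of this set are therefore also given without both arrays. In chip ZnO, replicate 1 stood apart as well, at -24.5 on the third component against 4.27, 25.5 and 23.9 in replicates 2 to 4. On the first component it had the outermost chip value, -53.5. The control media were on different arrays, and no label says whether their cultures were grown together. Medium and any batch therefore cannot be told apart, and the systems were compared within a medium. Nor does a label say whether chip and Transwell cultures were grown or processed together, so culture system and any batch cannot be told apart either. A set here means a nanomaterial with its own control medium. Array medians over all 53617 probe sets lay between 3.243 and 3.333 on the log2 scale. A group mean below the median of every one of its arrays was not shown to be above background. That held in all 8 groups for CMPK2, IFI44, IFI44L, MX1 and RSAD2, in some groups for another 7 members, and in no group for 34.

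In unexposed cells 23 of the 46 members were higher in the chip than in Transwell and 5 were lower, as the mean over both control media (adjusted p below 0.05, limma with Benjamini-Hochberg adjustment across all genes). Among all genes 14.6% were higher by the same rule and 18.9% were lower. The widest were IFIT2 at 4.97 times the Transwell level, IFI27 at 3.83, IRF1 at 3.72, TAP1 at 3.34 and IFITM1 at 3.14, and the lowest were TRIM21 at 0.547 and PARP9 at 0.603. The IFIT2 means in both Transwell control media lay below the array medians, so its 4.97 is a lower bound at best. The members' median log2 difference was 0.33, against -0.004 for all genes tested. Of the 23, 10 were higher by at least 1 on the log2 scale, and none of the 5 lower members reached that size. At that size 2.43% of all genes were higher and 3.03% lower. In 9 members every one of the 8 chip arrays lay above every one of the 8 Transwell arrays, and in 3 members below (5.08% and 6.86% of all genes). Without both arrays numbered 4 in the chip TiO2 set the counts were 23 higher and 6 lower, and without chip ZnO-control replicate 3, which was low in most members, 26 higher and 4 lower. The shares of all genes given above are those with every array. The 2 systems share no arrays in any of these comparisons.

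**Figure D1:**
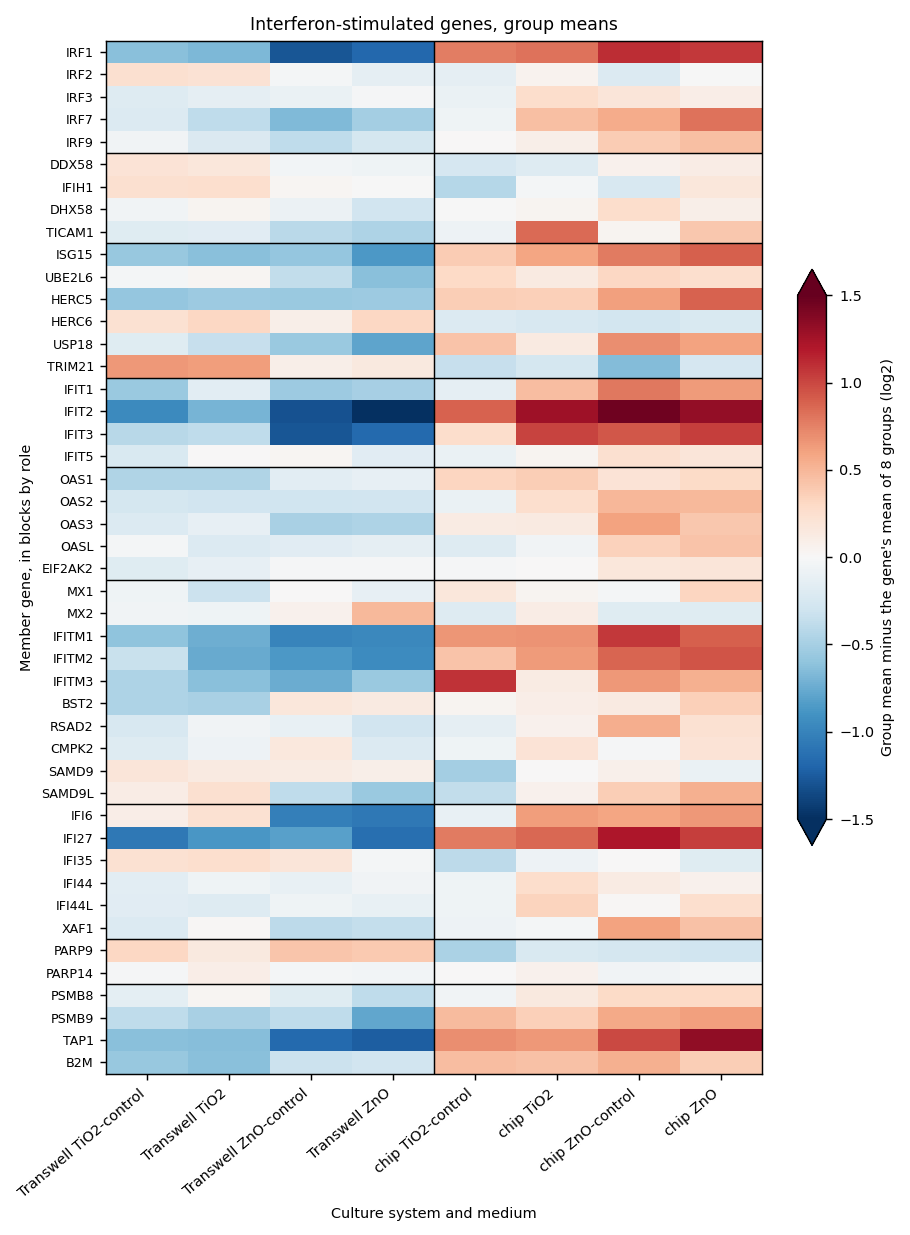
Group means of the 46 measured members (rows, in blocks by role) in the 8 groups (columns), each shown as the log2 difference from the mean of that gene over the 8 groups, with blue below and red above. IRF1, IFIT2, IFIT3, IFITM1, IFI27 and TAP1 are red throughout the 4 chip columns, and TRIM21 and PARP9 are blue there.

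The counts by role that follow stand against the same 14.6% of all genes higher and 18.9% lower. Of the 5 transcription factors, 3 were higher in the chip, 1 was lower and 1 did not pass. IRF1, which drives class I antigen-presentation genes and is itself induced by interferon, read 4.68, 5.004, 4.61 and 5.26 in replicates 1 to 4 of Transwell TiO2-control and 3.81, 4.35, 4.39 and 4.35 in Transwell ZnO-control. In the chip it read 5.96, 6.70, 6.31 and 6.15 in TiO2-control and 6.44, 6.96, 6.31 and 6.79 in ZnO-control. The lowest chip array thus lay above the highest Transwell array, and the mean difference was 1.89 ± 0.16 on the log2 scale, a 3.72-fold level (adjusted p = 8.09e-11). IRF7, the amplifier of type I interferon production, differed by 0.68 ± 0.15, adjusted p = 0.000623, and IRF9, the DNA-binding subunit of the type I complex, by 0.42 ± 0.13, adjusted p = 0.0149. IRF2, which binds the same element as IRF1 and opposes it, was lower, at -0.28 ± 0.11, adjusted p = 0.0418. IRF3, which is present before any signal and is activated by phosphorylation, had a difference of 0.18 ± 0.13, adjusted p = 0.308.

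None of the 4 sensors and adaptors passed in the mean over both media. IFIH1 (MDA5), DDX58 (RIGI) and DHX58 (LGP2) detect viral RNA in the cytosol, and TICAM1 (TRIF) is the adaptor of the endosomal sensor TLR3. IFIH1 read 6.16, 6.05, 5.76 and 5.80 in Transwell TiO2-control and 5.51, 5.92, 5.73 and 5.82 in Transwell ZnO-control. Chip arrays read 5.21, 5.26, 5.54 and 5.13 in TiO2-control and 6.32, 5.33, 4.23 and 5.995 in ZnO-control. All TiO2-control chip arrays were below the Transwell arrays of that medium for this gene, whereas the ZnO-control chip arrays ran from the lowest to the highest value of the 16. Its difference was -0.47 ± 0.20, adjusted p = 0.0741. It passed when only genes above the median level were fitted (adjusted p = 0.044) and without chip ZnO-control replicate 1 or 4. DDX58 gave -0.18 ± 0.14, adjusted p = 0.36, DHX58, not shown above background in either TiO2-control group or in Transwell ZnO-control, 0.20 ± 0.11, adjusted p = 0.193 and TICAM1 0.27 ± 0.13, adjusted p = 0.108.

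In the ISG15 and ubiquitin system 4 of 6 members were higher in the chip and 2 were lower. ISG15, the ubiquitin-like protein itself, read 5.28, 4.81, 4.73 and 5.26 in Transwell TiO2-control and 5.06, 4.64, 5.10 and 5.25 in Transwell ZnO-control. In the chip the same medium pair gave 5.97, 5.77, 5.93 and 6.22 and 6.53, 6.89, 5.56 and 6.51. Every chip array was above every Transwell array, by a mean of 1.16 ± 0.16 or 2.23-fold (adjusted p = 1.48e-06). HERC5, the main ligase that attaches ISG15, read 5.23, 4.93, 4.99 and 5.43 and then 5.57, 5.17, 5.12 and 4.81 in the Transwell TiO2-control and ZnO-control arrays. Chip arrays of the same media gave 6.28, 5.74, 6.19 and 6.16 and then 6.90, 6.40, 5.46 and 6.60. The systems overlapped only through chip ZnO-control replicate 3, and the difference was 1.06 ± 0.16, adjusted p = 2.41e-06. USP18, which removes ISG15 and restrains the type I receptor, differed by 0.93 ± 0.19, adjusted p = 0.000254, and UBE2L6, the conjugating enzyme of the system, by 0.51 ± 0.11, adjusted p = 0.000701.

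The lower members of this group were TRIM21 and HERC6. TRIM21, a cytosolic antibody receptor and ubiquitin ligase, read 7.87, 7.95, 7.92 and 7.80 in Transwell TiO2-control and 7.31, 7.21, 7.50 and 7.29 in Transwell ZnO-control. Chip TiO2-control arrays read 6.81, 6.99, 6.87 and 6.87 and chip ZnO-control arrays 6.62, 5.996, 6.73 and 6.99. No chip array reached the lowest Transwell array, and the difference was -0.87 ± 0.11, or 0.547 times the Transwell level (adjusted p = 4.25e-07). HERC6, a relative of HERC5, read 6.17, 5.90, 5.79 and 5.85 and 5.59, 5.89, 5.66 and 5.999 in Transwell TiO2-control and ZnO-control. In the chip the values were 5.64, 5.51, 5.29 and 5.54 and 5.65, 5.53, 4.49 and 6.03. Its arrays overlapped in ZnO-control and the difference was -0.40 ± 0.15, adjusted p = 0.0351. That call was lost when each array was centred on its median (adjusted p = 0.058), when only the arrays compared were fitted (0.0749) and without each of 5 arrays in turn (0.0615 to 0.0986), which were replicate 3 of both chip control media, Transwell TiO2-control replicate 1 and Transwell ZnO-control replicates 2 and 4.

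The IFIT family binds viral RNA with foreign ends, and 3 of its 4 members were higher in the chip. IFIT2 read 3.23, 3.58, 2.67 and 3.51 in Transwell TiO2-control and 3.10, 2.84, 2.98 and 2.65 in Transwell ZnO-control. It read 4.98, 4.94, 5.23 and 5.22 in chip TiO2-control and 6.53, 5.56, 4.41 and 6.18 in chip ZnO-control. The systems did not overlap and the difference, 2.31 ± 0.26 or 4.97-fold (adjusted p = 2.23e-08), was the largest of the 46 members. The means of IFIT2 in Transwell TiO2-control, ZnO-control and ZnO lay below the array medians, so the size against those groups is a lower bound at best. IFIT3, the partner that stabilises IFIT1, read 4.89, 4.54, 3.76 and 4.42 and 3.80, 3.36, 3.60 and 3.40 in Transwell TiO2-control and ZnO-control. The chip arrays gave 5.01, 4.88, 5.28 and 5.16 in TiO2-control and 6.29, 5.76, 4.80 and 6.14 in ZnO-control. The TiO2-control arrays overlapped slightly, with a highest value of 4.89 in Transwell and a lowest of 4.88 in the chip, and the mean difference was 1.45 ± 0.22, adjusted p = 3.69e-06. IFIT1 was not shown above background in any Transwell group nor in chip TiO2-control, so its mean difference has no measured size (0.88 ± 0.28, adjusted p = 0.0142). IFIT5 gave 0.17 ± 0.16, adjusted p = 0.502.

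Oligoadenylate synthetases make the messenger that activates RNase L, and PKR (EIF2AK2) stops translation. Here 2 of 5 members were higher in the chip. OAS1 differed by 0.57 ± 0.11, adjusted p = 0.000147 and OAS3 by 0.71 ± 0.12, adjusted p = 1.7e-05. OAS2, not shown above background in Transwell, gave 0.48 ± 0.20, adjusted p = 0.061, OASL 0.17 ± 0.16, adjusted p = 0.487 and EIF2AK2 0.18 ± 0.08, adjusted p = 0.0872.

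Among the 10 members that restrict viruses directly, 4 were higher in the chip and none was lower. Of those 4, 3 were the IFITM proteins, which hold viral envelopes from fusing with cell membranes. IFITM1 read 5.15, 5.53, 5.09 and 5.69 in Transwell TiO2-control and 5.15, 5.16, 4.52 and 5.07 in Transwell ZnO-control. It reached 6.60, 6.46, 6.38 and 7.05 in chip TiO2-control and 7.23, 7.35, 6.25 and 7.25 in chip ZnO-control. The systems did not overlap for IFITM1, and the difference was 1.65 ± 0.14 or 3.14-fold (adjusted p = 2.25e-10). IFITM2 read 3.32, 4.39, 3.85 and 4.78 and 4.04, 2.91, 3.25 and 4.02 in the Transwell control media, TiO2-control first. The chip values were 4.43, 4.94, 4.93 and 5.10 and 4.74, 6.47, 4.62 and 5.35. IFITM2 overlapped in TiO2-control and not in ZnO-control, and differed by 1.25 ± 0.23, adjusted p = 7.94e-05. IFITM3 read 4.79, 5.64, 4.36 and 5.10 and 5.07, 4.62, 4.50 and 4.56 in Transwell, in the same order. In the chip it read 6.59, 6.88, 6.03 and 6.54 and 6.32, 6.45, 5.31 and 6.24. Only chip ZnO-control replicate 3 fell within the Transwell range, and the difference was 1.47 ± 0.28, adjusted p = 0.000112. The IFITM genes are close copies of each other, so values of a single one are uncertain where probes can bind several.

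BST2 (tetherin), which holds budding virus at the cell surface, was higher by 0.23 ± 0.09, adjusted p = 0.038. The other 6 restriction genes did not pass. MX1 and MX2 are antiviral GTPases, RSAD2 (viperin) makes a nucleotide that ends viral RNA chains, CMPK2 is a nucleotide kinase, and SAMD9 and SAMD9L restrict poxviruses. Their differences ran from -0.37 for SAMD9 to 0.38 for RSAD2 (adjusted p = 0.0521). MX1, RSAD2 and CMPK2 were not shown above background in any of the 8 groups, so their differences have no measured size. MX2, SAMD9 and SAMD9L were not shown above background in some groups.

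Of the 6 interferon-inducible proteins of the IFI type, 3 were higher in the chip and 1 was lower. IFI27, a small membrane protein much used as a marker of interferon exposure, read 3.98, 3.68, 4.29 and 3.89 in Transwell TiO2-control and 4.25, 4.46, 4.32 and 3.87 in Transwell ZnO-control. Chip cultures gave 5.49, 5.28, 6.19 and 6.28 in TiO2-control and 6.54, 5.86, 5.85 and 6.74 in ZnO-control. The gap between the systems exceeded the spread of either, at 1.94 ± 0.17 or 3.83-fold (adjusted p = 3.74e-10). IFI6 differed by 0.70 ± 0.24, adjusted p = 0.0211 and XAF1, a pro-apoptotic interferon target, by 0.56 ± 0.19, adjusted p = 0.0217. IFI35 read 7.13, 7.40, 7.28 and 7.18 and 7.22, 7.23, 7.11 and 7.23 in the Transwell TiO2-control and ZnO-control arrays. It read 6.67, 6.65, 6.50 and 6.67 and 6.96, 7.02, 7.04 and 7.07 in the chip. Its chip arrays were lower in both media, with a wider gap in TiO2-control, and the mean difference was -0.40 ± 0.08, adjusted p = 0.000311. IFI44 and IFI44L did not pass and were not shown above background.

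PARP9, an ADP-ribosyltransferase that acts with the ligase DTX3L, was lower in the chip. It read 6.50, 6.21, 6.47 and 6.46 in Transwell TiO2-control and 6.80, 6.24, 6.43 and 6.62 in Transwell ZnO-control. The chip arrays read 5.67, 5.41, 5.60 and 5.86 and 5.68, 5.78, 6.05 and 5.85 in the same media. The systems did not overlap, and the difference was -0.73 ± 0.11, or 0.603 times the Transwell level (adjusted p = 2.35e-06). PARP14 gave 0.00 ± 0.13, adjusted p = 0.989.

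All 4 antigen-presentation members were higher in the chip. TAP1, a subunit of the transporter that carries peptides to class I molecules, read 4.44, 4.46, 4.55 and 4.44 in Transwell TiO2-control and 3.62, 4.13, 4.002 and 4.002 in Transwell ZnO-control. In the chip it read 5.90, 5.61, 5.60 and 6.06 and 6.09, 6.35, 5.46 and 6.47. Replicates lay close together in Transwell TiO2-control (SD 0.051) and further apart in chip ZnO-control (SD 0.451). The systems did not overlap, with a difference of 1.74 ± 0.11 or 3.34-fold (adjusted p = 5.04e-13), the smallest adjusted p of the members. PSMB9, a catalytic subunit of the immunoproteasome, differed by 0.91 ± 0.12, adjusted p = 2.6e-07. PSMB8, another such subunit, differed by 0.28 ± 0.09, adjusted p = 0.0152. B2M, the invariant chain of class I molecules, was higher by 0.94 ± 0.09, adjusted p = 2.86e-09. TAP1 and PSMB9 are neighbours transcribed in opposite directions, and their promoter windows overlap by 13 bases.

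**Figure D2:**
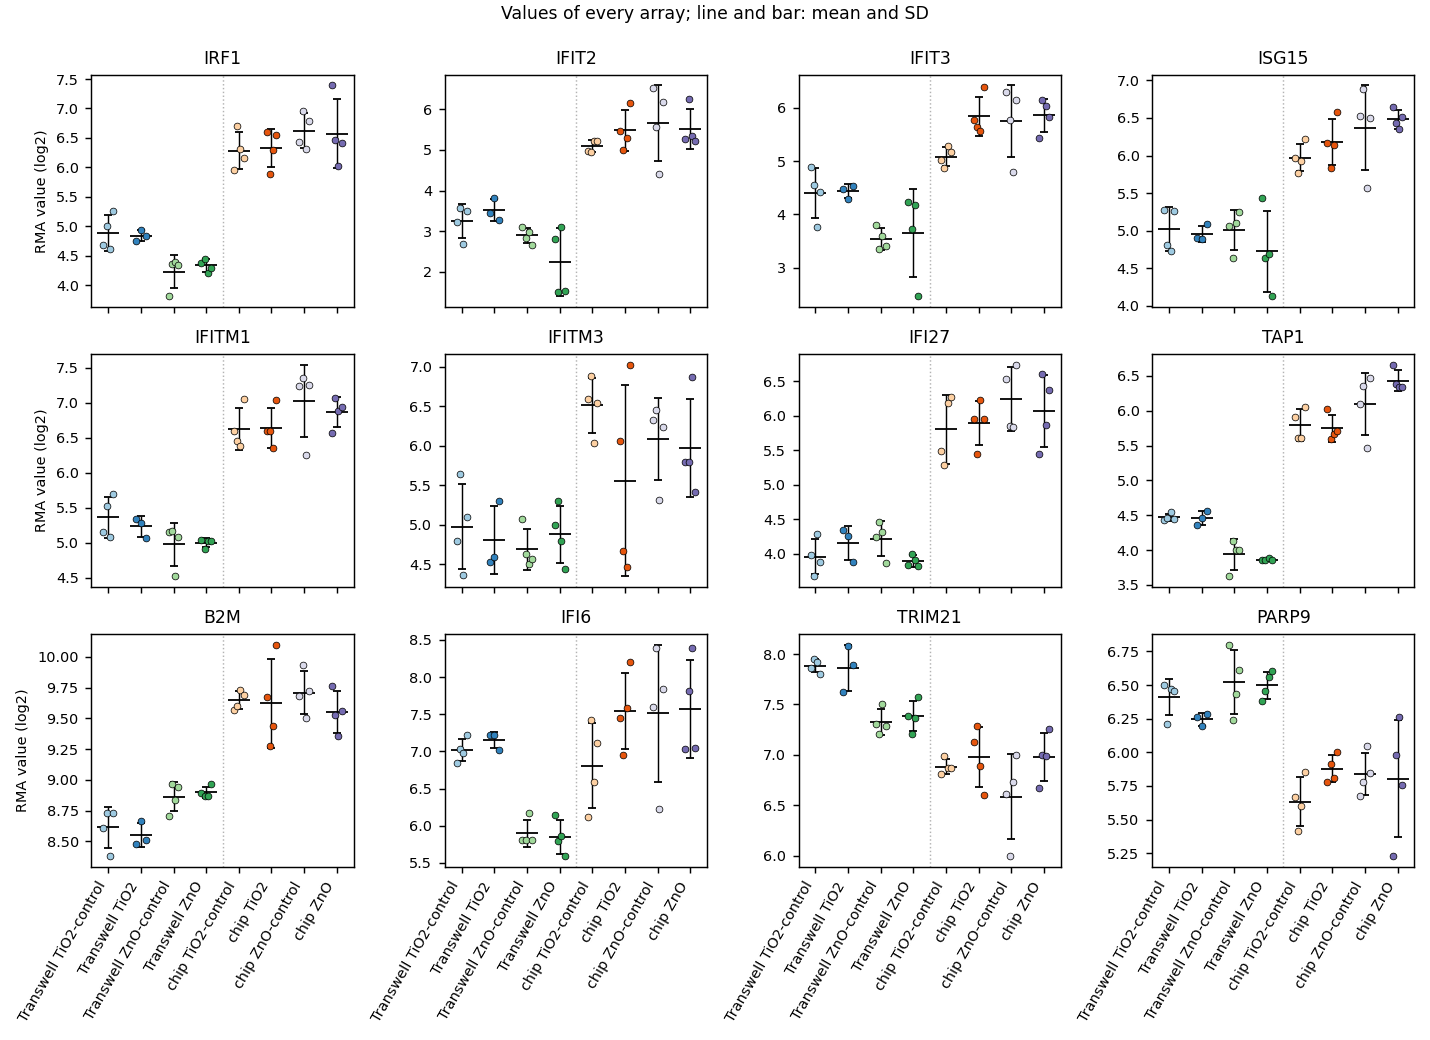
Log2 values of every array for 12 members in the 8 groups (points, with the group mean and SD as line and bar); the dotted line divides Transwell on the left from the chip on the right. IRF1, IFIT2, ISG15, IFITM1, IFI27, TAP1 and B2M lie higher in all 4 chip groups, and TRIM21 lies lower in the control media of the chip.

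Member promoters were set beside these calls. An ISRE core lay in 12 of the 19 promoters of higher members, in 1 of 4 of lower members (TRIM21, after its annotated start) and in 8 of 13 of members that did not pass. A GAS element lay in 6, 1 and 1 of them. The counts are a description, and no difference between them was tested.

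The difference between the systems was larger in one control medium than in the other for part of the list. In TiO2-control 12 members were higher in the chip and 3 were lower, against 9.42% and 13.5% of all genes, with a median of 0.13 (all genes -0.013). Without both arrays numbered 4 these counts were 12 and 5. In ZnO-control 24 were higher and 2 were lower, against 12.3% and 14.9% of all genes, with a median of 0.58 (all genes -0.006). Without chip ZnO-control replicate 3 these counts were again 24 and 2. The shares of all genes for both media are those with every array. The difference of the differences itself passed for 3 members, all larger in ZnO-control, against 1.69% of all genes in that direction and 1.05% in the other.

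IFI6, a mitochondrial protein that restrains apoptosis, was the widest of the 3. It read 6.85, 7.03, 6.98 and 7.22 in Transwell TiO2-control and 5.81, 5.81, 6.17 and 5.81 in Transwell ZnO-control. In the chip it read 6.12, 7.43, 6.59 and 7.11 and 7.60, 8.40, 6.22 and 7.84. The chip exceeded Transwell in every ZnO-control array (1.61 ± 0.34, adjusted p = 0.000405), while in TiO2-control the arrays overlapped (-0.21 ± 0.34, adjusted p = 0.74). The difference of the differences was 1.82 ± 0.47, adjusted p = 0.0331.

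SAMD9L read 3.33, 3.50, 3.44 and 3.48 in Transwell TiO2-control and 2.83, 3.29, 2.82 and 2.85 in Transwell ZnO-control. Chip arrays read 2.76, 2.77, 3.24 and 3.09 and 3.76, 3.68, 3.34 and 4.02. The chip lay lower in TiO2-control (-0.48 ± 0.23, not passed) and higher in ZnO-control (0.75 ± 0.23, passed), and the 2 differences were 1.23 ± 0.32 apart (adjusted p = 0.0331). Its means in chip TiO2-control and Transwell ZnO-control lay below the array medians. For TAP1 the chip was higher by 1.32 in TiO2-control and by 2.16 in ZnO-control, 0.83 ± 0.22 apart (adjusted p = 0.0367). These 3 calls were not firm. Leaving out 1 of the 16 arrays at a time gave 0 to 7 calls, with 0 without chip ZnO-control replicate 1 or 4, Transwell TiO2-control replicate 2 or 4 or Transwell ZnO-control replicate 1. A single call was left without chip TiO2-control replicate 1 or 3 or Transwell TiO2-control replicate 3. Without chip ZnO-control replicate 3 there were 7 (IFI6, SAMD9L, TAP1, IRF7, IFIT3, OAS3 and IFITM1). Without both arrays numbered 4 there were 4, namely IFI6, SAMD9L, TAP1 and IFIT3, against 2.45% of all genes larger in ZnO-control. Fitting only the arrays compared left 1 call. No share of all genes is given for the other alternatives here.

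**Figure D3:**
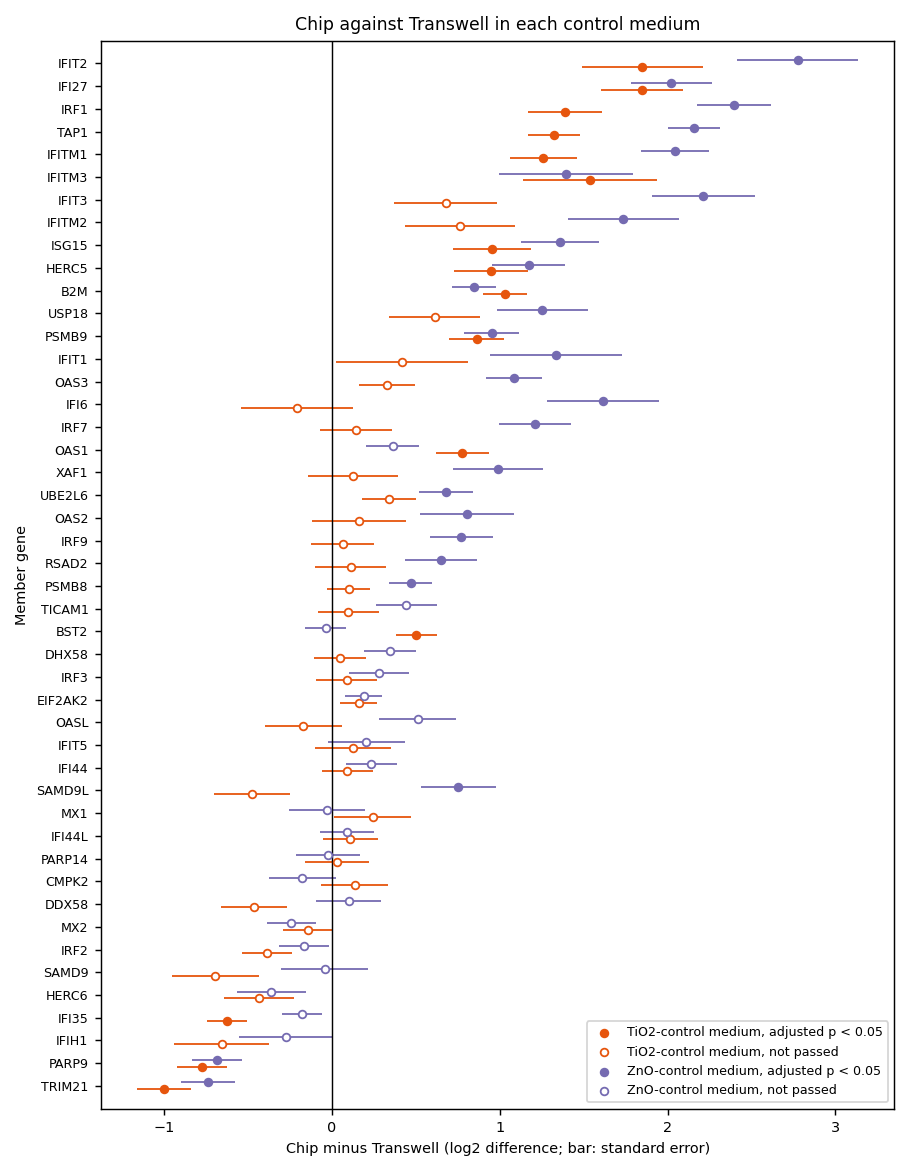
Log2 difference between chip and Transwell for each of the 46 members in TiO2-control (orange) and ZnO-control (purple), ordered by the mean of both, with standard errors and with filled points where the adjusted p was below 0.05. IFIT2 is at 1.85 and 2.78, IFI6 at -0.21 and 1.61, and TRIM21 at -1 and -0.74.

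Chip ZnO-control replicate 3 carried the lowest value of its group in 39 of the 46 members, whereas it was lowest for 25.3% of all genes. The mean of the 46 members was 5.766, 5.73, 5.149 and 5.87 in replicates 1 to 4 of that group. In chip TiO2-control the same mean was 5.346 ± 0.085 (SD, n = 4), and it was 5.52 ± 0.175 (n = 4) with TiO2 and 5.664 ± 0.228 (n = 4) with ZnO. In Transwell it was 5.058 ± 0.061 in TiO2-control, 4.922 ± 0.028 in ZnO-control and 4.865 ± 0.061 with ZnO (n = 4 each), and 5.07 ± 0.035 with TiO2 (n = 3). The chip groups thus lay above the Transwell groups in every array, and their arrays were more spread.

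**Figure D4:**
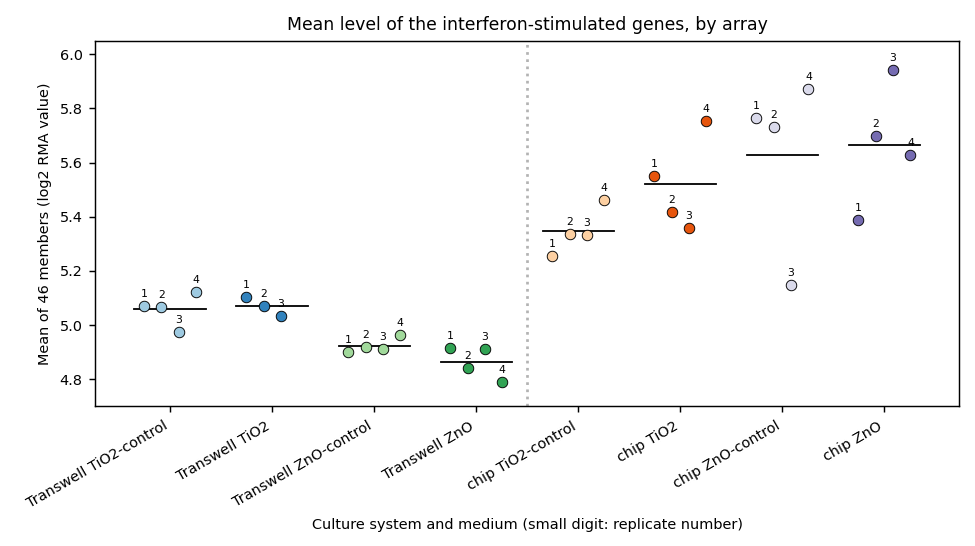
Mean log2 value of the 46 members on each of the 31 arrays, by group, with the replicate number beside each point and the group mean as a line; the vertical axis does not start at 0. Every chip array lies above every Transwell array, and replicate 3 of chip ZnO-control (5.149) is the lowest of the chip.

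The control media themselves were then compared. In Transwell 1 member was higher in ZnO-control than in TiO2-control and 3 were lower, against 2.88% and 3.76% of all genes. BST2 read 7.98, 7.79, 7.66 and 8.01 in TiO2-control and 8.62, 8.41, 8.57 and 8.39 in ZnO-control, without overlap (0.64 ± 0.12, adjusted p = 0.00164). The lower members were IFI6 (-1.12 ± 0.34, adjusted p = 0.0399), TRIM21 (-0.56 ± 0.16, adjusted p = 0.0333) and TAP1 (-0.53 ± 0.16, adjusted p = 0.0357). Without any 1 of the 8 arrays only 1 or 2 of the 4 calls were left, and BST2 was among them each time. The TAP1 call was also lost when each array was centred on its median (adjusted p = 0.0587). In the chip no member passed between the media (0.058% of all genes did in either direction), and the median was 0.29 against 0.002 for all genes. At an unadjusted p below 0.05 there were 13 members, all higher in ZnO-control, against 9.69% of all genes in either direction and 4.75% higher. Without both arrays numbered 4 there were 18, all higher, against 14.4% and 7.65%.

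Neither nanomaterial moved a member past the threshold in either system, in limma with Benjamini-Hochberg adjustment across all genes. With ZnO, 0 of 46 members passed in Transwell (0% of all genes) and 0 in the chip (0.272% of all genes, 53 higher and 8 lower). At an unadjusted p below 0.05 there were 2 members in each system, against 3.73% of all genes in Transwell and 9.42% in the chip. The median member difference was -0.03 in Transwell and 0.01 in the chip. These chip values include chip ZnO replicate 1, and 0 members passed when any 1 of the 8 arrays was left out. With TiO2, 0 members passed in Transwell (0% of all genes) and 0 in the chip (0% of all genes). At an unadjusted p below 0.05 there were 0 members in Transwell, where 2.64% of all genes were, and 9 in the chip, 8 of them higher, where 8.92% of all genes were and 5.34% were higher. The median with TiO2 was 0.004 in Transwell and 0.14 in the chip, where all genes had 0.022. In the chip 37 of 46 members and 54.6% of all genes lay above 0. Without both arrays numbered 4 these chip values were 7 members at an unadjusted p below 0.05, 6 of them higher (13.4% and 8.22% of all genes), a median of 0.12 and 32 members above 0 (57.1% of all genes). The 95% confidence interval of the difference stayed within 2-fold for 44 members with ZnO in Transwell, 46 with ZnO in the chip, 42 with TiO2 in Transwell and 39 with TiO2 in the chip. These intervals use 1 spread per gene over all 8 groups, and chip arrays were often more spread. IFIT1, for example, had an SD of 0.928 in chip ZnO-control and 0.194 in Transwell ZnO-control. Intervals from the chip arrays alone can be wider, so larger responses in the chip are not excluded.

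TICAM1 stood first among the members in the chip with TiO2. It read 4.97, 5.20, 4.52 and 5.01 in chip TiO2-control and 6.27, 5.83, 6.01 and 5.34 with TiO2, so that the exposed arrays all lay above the controls. In Transwell it read 4.92, 4.91, 4.63 and 4.85 in TiO2-control and 5.03, 4.69 and 4.78 with TiO2, which overlapped. The chip difference was 0.94 ± 0.18, adjusted p = 0.102. It passed without chip TiO2 replicate 4 (adjusted p = 0.0229), without both arrays numbered 4 (0.0183), with array weights (0.0254) and with only the genes above the median level (0.0491). It was the only member to pass in any of these alternatives, and over the others its adjusted p ran from 0.0521 to 0.818. With ZnO TICAM1 read 4.93, 5.76, 5.26 and 5.70 in the chip, against 5.19, 5.07, 4.85 and 5.08 in its control, a difference of 0.37 ± 0.18, adjusted p = 0.533.

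None of the members that differed most between the systems passed in an exposure, and their exposed arrays read as follows. IRF1 read 4.76, 4.93 and 4.84 with TiO2 and 4.38, 4.45, 4.21 and 4.30 with ZnO in Transwell, and 6.59, 5.90, 6.29 and 6.55 and 7.40, 6.46, 6.02 and 6.41 in the chip. IFIT2 read 3.44, 3.81 and 3.28 and 2.80, 1.49, 3.09 and 1.53 in Transwell in the same order, and 5.46, 4.995, 5.30 and 6.16 and 5.27, 6.25, 5.35 and 5.22 in the chip. For both genes the 2 systems remained apart after either exposure. IFIT3 read 4.48, 4.28 and 4.54 with TiO2 and 4.23, 3.73, 4.17 and 2.46 with ZnO in Transwell, and 5.76, 5.64, 5.56 and 6.38 and 5.43, 6.14, 6.03 and 5.83 in the chip. Its chip arrays with TiO2 all lay above those in TiO2-control, yet the difference did not pass (0.75 ± 0.31, adjusted p = 0.471).

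ISG15 read 4.90, 4.89 and 5.08 with TiO2 and 5.44, 4.64, 4.70 and 4.12 with ZnO in Transwell, and 6.17, 5.83, 6.15 and 6.58 and 6.64, 6.43, 6.35 and 6.51 in the chip. HERC5 read 5.06, 5.29 and 5.18 and 4.86, 5.15, 5.42 and 5.28 in Transwell, and 6.34, 6.08, 5.86 and 6.03 and 6.42, 6.48, 7.11 and 6.41 in the chip. Chip and Transwell did not overlap for either gene in these exposed arrays. IFI27 read 4.34, 4.27 and 3.88 and 3.85, 4.01, 3.91 and 3.83 in Transwell, and 5.95, 5.45, 6.23 and 5.96 and 5.44, 6.61, 5.86 and 6.38 in the chip. TAP1 read 4.36, 4.45 and 4.57 and 3.86, 3.86, 3.88 and 3.86 in Transwell, and 6.03, 5.59, 5.67 and 5.71 and 6.66, 6.39, 6.34 and 6.34 in the chip. Both were likewise without overlap. The largest ZnO difference among these in the chip was that of TAP1, at 0.34 ± 0.16, adjusted p = 0.488.

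IFITM1 read 5.34, 5.28 and 5.07 with TiO2 and 5.04, 4.91, 5.03 and 5.03 with ZnO in Transwell, and 6.59, 6.59, 6.35 and 7.04 and 6.57, 7.07, 6.87 and 6.94 in the chip. IFITM2 read 3.80, 3.37 and 3.82 and 3.70, 3.11, 3.70 and 3.40 in Transwell, and 5.44, 4.51, 4.76 and 5.52 and 5.30, 5.52, 5.12 and 5.52 in the chip. Neither overlapped between the systems. IFITM3 read 4.53, 4.59 and 5.30 and 4.99, 5.30, 4.79 and 4.44 in Transwell, and 6.06, 4.67, 4.47 and 7.03 and 5.79, 5.80, 6.87 and 5.42 in the chip. With TiO2 its chip arrays split, with replicates 2 and 3 at the Transwell level and replicates 1 and 4 above it, and the mean against control was -0.96 ± 0.40, adjusted p = 0.484.

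Among the lower members, TRIM21 read 7.63, 8.08 and 7.89 with TiO2 and 7.39, 7.21, 7.37 and 7.57 with ZnO in Transwell, and 7.13, 7.28, 6.89 and 6.60 and 6.68, 6.996, 6.99 and 7.26 in the chip. PARP9 read 6.26, 6.19 and 6.28 and 6.38, 6.45, 6.56 and 6.60 in Transwell, and 5.78, 5.92, 5.81 and 5.999 and 5.23, 5.98, 6.26 and 5.75 in the chip. Both means were lower in the chip, but TRIM21 did not pass after ZnO (-0.40 ± 0.16, adjusted p = 0.0604) nor PARP9 after TiO2 (-0.37 ± 0.16, adjusted p = 0.123). IFI35 read 7.33, 7.22 and 7.26 and 7.04, 6.96, 6.90 and 7.03 in Transwell, and 6.98, 7.01, 6.94 and 6.82 and 6.52, 6.52, 7.28 and 7.04 in the chip. HERC6 read 5.99, 6.02 and 6.01 and 5.73, 5.98, 6.06 and 6.26 in Transwell, and 5.35, 5.36, 5.32 and 5.80 and 5.01, 5.51, 5.65 and 5.70 in the chip. IFIH1 read 6.06, 5.93 and 5.89 and 5.80, 5.67, 5.61 and 5.72 in Transwell, and 5.89, 5.56, 5.33 and 5.95 and 5.04, 6.19, 6.36 and 5.95 in the chip. HERC6 did not overlap between the systems in either exposure, IFI35 overlapped with ZnO, and IFIH1 overlapped with both.

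The responses were also compared between the systems. No member's response to ZnO or to TiO2 differed between chip and Transwell (0.00447% and 0% of all genes did), with 1 and 2 members at an unadjusted p below 0.05 (6.01% and 5.43% of all genes). Without both arrays numbered 4, 0 members passed for TiO2 and 3 had an unadjusted p below 0.05 (9.32% of all genes). The 95% interval of that difference stayed within 2-fold for 37 members with ZnO and 34 with TiO2, and for the others it also held larger differences. These intervals rest on the same shared spread and can be too narrow as well. The nominal doses differed between the systems while the deposited doses were modelled as equal.

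**Figure D5:**
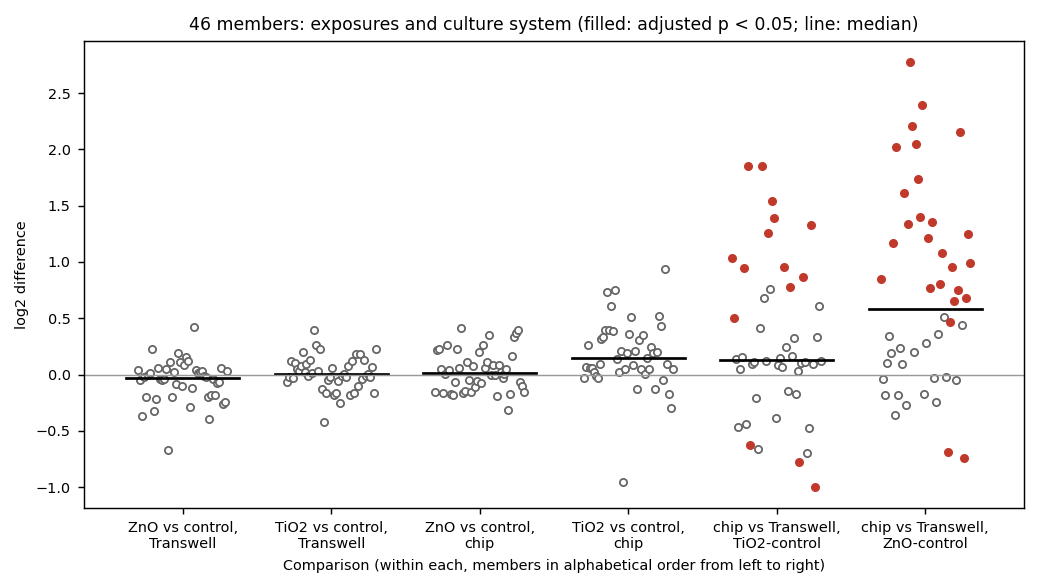
Log2 differences of the 46 members (points) in 6 comparisons: ZnO and TiO2 against control in each system, and chip against Transwell in each control medium; filled points passed and the line is the median. No point is filled in the 4 exposures, whereas 15 and 26 are filled in TiO2-control and ZnO-control.

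The systems also differed after exposure. With ZnO 24 members were higher in the chip and 3 were lower (13.3% and 16.5% of all genes), with a median of 0.66 (all genes 0.016). With TiO2 16 were higher and 1 was lower (7.92% and 10.2% of all genes), with a median of 0.35 (all genes 0.010). Without chip TiO2 replicate 4 these counts were 15 and 1, and the shares given are those with every array. The widest was IFIT2 in both, at 3.30 ± 0.36, adjusted p = 3.2e-08 with ZnO and 1.97 ± 0.39, adjusted p = 0.00048 with TiO2. Its Transwell mean with ZnO lay below the array medians, so the size with ZnO is a lower bound at best. Higher in the chip in all 4 media were 9 members, IRF1, ISG15, HERC5, IFIT2, IFITM1, IFI27, PSMB9, TAP1 and B2M, whereas 4.18% of all genes were, and the same 9 were without both arrays numbered 4. None was lower in all 4, against 5.5% of all genes. BST2 passed in the TiO2 set and not in the ZnO set: it was higher in the chip by 0.50 in TiO2-control and 0.59 with TiO2, against -0.04 in ZnO-control and 0.23 with ZnO. IRF7 differed by 0.14 in TiO2-control, which did not pass, and by 0.84 with TiO2, 1.21 in ZnO-control and 1.32 with ZnO, which all passed. For neither gene did the difference between the control media pass (-0.54 ± 0.17, adjusted p = 0.0896 for BST2, 1.07 ± 0.30, adjusted p = 0.0507 for IRF7).

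The genes that act before the members in the pathway were taken from a separate list, and their counts stand against the same 14.6% of all genes higher and 18.9% lower. Of 9 interferon genes 8 lay below the array medians in all 8 groups, with IFNL3 the exception. IFNB1 alone passed, at 1.90 in the chip and 1.53 in Transwell (0.36 ± 0.13, adjusted p = 0.0243), values not shown above background. Of 6 receptor genes 3 were higher in the chip and 1 was lower. IFNAR2, a chain of the type I receptor, differed by 1.08 ± 0.09, adjusted p = 9.24e-11, and IFNGR1 and IFNGR2, the chains of the type II receptor, by 0.86 ± 0.08, adjusted p = 1.03e-09 and 0.44 ± 0.08, adjusted p = 9.84e-05. IFNAR1, the other type I chain, was lower, at -0.22 ± 0.09, adjusted p = 0.0425.

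Of 9 measured JAK-STAT genes 4 were higher in the chip and 1 was lower. JAK1, the kinase shared by all 3 interferon types, differed by 1.08 ± 0.07, adjusted p = 1.07e-12. SOCS3, a feedback inhibitor of cytokine receptors, differed by 1.43 ± 0.15, adjusted p = 1.29e-08, and STAT3 by 0.46 ± 0.06, adjusted p = 1.55e-07. Among 10 further sensors and adaptors 2 were higher and 2 lower. CGAS, the cytosolic DNA sensor, was higher by 0.82 ± 0.11, adjusted p = 2.82e-07, TRAF3, a signalling adaptor, was higher by 0.48 ± 0.13, adjusted p = 0.00493, and MYD88, the adaptor of most Toll-like receptors, was lower, at -0.98 ± 0.12, adjusted p = 6.43e-08.

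Of 33 other measured interferon targets outside the 48, 17 were higher in the chip and 3 were lower, with a median of 0.31, against 14.6% and 18.9% of all genes. HLA-E, a class I molecule read by natural killer cells, differed by 0.77 ± 0.09, adjusted p = 1.12e-07, SP100, a nuclear body protein, by 0.97 ± 0.14, adjusted p = 1.11e-06, and APOL1 by 1.12 ± 0.18, adjusted p = 7.36e-06. By medium, 5 were higher and 2 lower in TiO2-control (9.42% and 13.5% of all genes), and 18 were higher and none lower in ZnO-control (12.3% and 14.9%). No gene of these 5 lists passed in any exposure.

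Markers were read beside these results, and their counts stand against the same 14.6% of all genes higher in the chip and 18.9% lower. Of 13 epithelial and enterocyte markers CDH1 and EPCAM stood at 12.17 and 11.62 in the chip and 12.05 and 11.58 in Transwell. Of the 13, 4 were higher in the chip and 5 were lower by limma. KRT19 was among the higher, at 0.663 ± 0.081, adjusted p = 1.24e-07. Among the lower were SI (sucrase-isomaltase) at -3.36 ± 0.33, adjusted p = 2.05e-09, and VIL1 at -0.755 ± 0.074, adjusted p = 2.56e-09. The mean of the list ran from 8.563 to 8.713 over Transwell arrays and from 8.127 to 8.707 over chip arrays. Of 11 measured immune markers 4 were higher in the chip (CSF1R, ITGAM, CD68 and IRF8) and CD3E was lower, and the list mean ran from 4.369 to 4.574 in Transwell and from 4.716 to 4.958 in the chip. The pan-leukocyte gene PTPRC read 1.58 in the chip and 1.54 in Transwell, and it, CD3E and the plasmacytoid dendritic cell genes CLEC4C and LILRA4 lay below the array medians in all groups. Of 7 stromal and endothelial markers none was higher in the chip and 2 were lower, with list means of 3.863 to 4.153 in Transwell and 3.551 to 4.2 in the chip. The part of these markers in the members' differences was not tested. Fewer cells with a transcript and less of it per cell cannot be told apart in such bulk samples.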

How the data were processed

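Gene expression in Caco-2 cells was measured on Affymetrix whole-transcript arrays from total RNA, 31 samples in 8 groups by culture system and medium. The table holds log2 values as deposited, made with RMA by the authors per the submitters' processing notes, with no version given. RMA gives all arrays a common distribution, so a shift common to all genes cannot be seen. Samples were grouped by their labels, and columns were matched to samples by the sample identifier that each column carries.

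Of 53617 probe sets 23871 named 1 gene in the platform annotation, 1842 named several and 27904 had none listed. Symbols were updated through gene identifiers with the RefSeq table of GRCh38.p14. The brightest probe set of a gene was kept, by its mean over arrays, which left 22395 genes. Several probe sets measured IRF9, PSMB8, PSMB9 and TAP1, and their log2 differences between systems had 1 direction per gene, from 0.28 to 0.42 for IRF9 and within a narrower range for the others. A model with a mean per group was fitted to all genes and all arrays with limma 3.58.1 in R 4.3.3 (lmFit and eBayes, 23 residual and 4.77 prior degrees of freedom). The Benjamini-Hochberg adjustment ran across all genes of a comparison, at a threshold of 0.05. Differences are log2 with standard errors. On simulated data for chip against Transwell in ZnO-control, over 22395 genes, the fit called 82% of genes shifted by 1 and 100% of genes shifted by 2, with 15 false calls. The simulated noise was independent, with 1 spread per gene in all groups, and 100 genes were shifted at each size in 1 group. The real chip arrays were more spread and many more genes differed, so these figures need not hold for the data.

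The members and all lists were chosen with earlier results of these data known. Array values were printed for members that passed with a mean difference between systems of at least 1, for the 5 lowest, and for members with a difference between media; BST2, TICAM1 and the mean over members were chosen after their values were seen. Of each pathway list up to 3 genes with the smallest p were named. IFNAR1 was named after its value was seen, and markers such as CDH1, EPCAM and PTPRC were not named by this rule. Alternatives were an intensity trend with a robust prior, array weights, the replicate number as a block, only genes above the median level, the mean of all probe sets, centred arrays, only the arrays compared, both chip arrays numbered 4 left out, and each array left out in turn.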

Additional observations from a re-analysis of the deposited data

Results flagged for a closer look

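Single arrays stood apart from the other 3 of their group, by Dixon's 95% criterion, in 14 of 161 groups examined for 22 members and the member mean, and in 25 of 322 groups over all members. Chance flags about 1 in 20 groups. IRF1 in Transwell ZnO-control replicate 1 read 3.808, below the other replicates (4.351 to 4.393). In chip ZnO, replicate 3 of HERC5 read 7.106, above the others at 6.414 to 6.481. Replicate 4 of chip TiO2 gave 5.799 for HERC6, above 5.318 to 5.357 in the other replicates. IFIT2 in chip ZnO replicate 2 read 6.248, above the other replicates (5.216 to 5.353). In Transwell ZnO, replicate 2 of IFITM1 read 4.909, below the others at 5.025 to 5.036. Replicate 3 of Transwell ZnO-control gave 4.519 for IFITM1, below 5.073 to 5.159 in the other replicates. IFITM1 in chip ZnO-control replicate 3 read 6.248, below the other replicates (7.234 to 7.346). In chip TiO2, replicate 4 of BST2 read 8.227, below the others at 8.470 to 8.509. Replicate 2 of Transwell ZnO-control gave 3.290 for SAMD9L, above 2.817 to 2.852 in the other replicates. IFI6 in Transwell ZnO-control replicate 3 read 6.173, above the other replicates (5.806 to 5.813). In Transwell ZnO-control, replicate 3 of IFI35 read 7.112, below the others at 7.218 to 7.234. Replicate 3 of chip TiO2-control gave 6.503 for IFI35, below 6.653 to 6.669 in the other replicates. PARP9 in Transwell TiO2-control replicate 2 read 6.211, below the other replicates (6.455 to 6.499). In chip ZnO, replicate 1 of TAP1 read 6.659, above the others at 6.337 to 6.389. Of the 14, 3 were in chip ZnO, 5 in Transwell ZnO-control and 6 in other groups. The causes were not tested.

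The difference between chip and Transwell itself differed between the control media in 3 members. It was larger in ZnO-control than in TiO2-control by 1.824 for IFI6 (adjusted p = 0.0331), by 1.229 for SAMD9L (adjusted p = 0.0331) and by 0.832 for TAP1 (adjusted p = 0.0367), on the log2 scale with limma and Benjamini-Hochberg adjustment across all genes. These calls were not firm, since leaving out 1 array at a time gave 0 to 7 calls. The means of SAMD9L in chip TiO2-control and Transwell ZnO-control lay below the array medians.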

How the results depend on the processing

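Counts of called members between the systems stayed within 1.5 times their value in each control medium, in their mean and after each exposure under every alternative run, and no named difference reversed. Leaving out 1 array at a time gave 25 to 30 calls for the mean of both media, 15 to 16 in TiO2-control, 24 to 26 in ZnO-control, 23 to 29 after ZnO and 15 to 17 after TiO2. The 3 calls for the difference between control media became 5 with an intensity trend and robust prior, 7 with array weights, 7 with only genes above the median level and 1 with only the arrays compared, and 0 to 7 when an array was left out. The 4 calls between the Transwell control media became 1 to 2 when an array was left out. The 0 calls for TiO2 in the chip became 1 (TICAM1) with array weights, with only genes above the median level and without both arrays numbered 4, and 0 to 1 when an array was left out. The cause was not tested. Among the values of named members, 167 of the alternatives that kept all groups or changed the method had the same direction and side of the threshold, 7 lost the threshold and 4 gained it; of those that left out 1 array 266 were unchanged, 59 lost it and 3 gained it. Correlations of same-numbered deviations ran from -0.232 to 0.175, so no strong shared effect of the replicate number was seen. With so few arrays in a group they cannot show whether same-numbered samples were paired, and no label says so. With the replicate number as a block 27 members were called for the mean of both media, 16 in TiO2-control, 26 in ZnO-control and 3 between the Transwell control media, where IFI6 lost its call (adjusted p = 0.0501). Signal over background was not used here, so differences of the 5 members below the array medians in every group have no measured size, and those of the 7 below in some groups (DHX58, IFIT1, IFIT2, MX2, OAS2, SAMD9 and SAMD9L) are bounds at best where 1 of the groups compared lies below.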

Other observations

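The neighbours of the members in antigen presentation were looked at after their values were seen, from the list of other interferon targets. NLRC5, the transactivator of class I genes, was higher in the chip by 0.55 ± 0.11, adjusted p = 0.000207, TAP2, the partner of TAP1, by 0.31 ± 0.11, adjusted p = 0.0278, and PSMB10, a subunit of the immunoproteasome, by 0.37 ± 0.09, adjusted p = 0.00166. PSME2, a subunit of the proteasome activator, differed by 0.55 ± 0.11, adjusted p = 0.000252 and HLA-F by 0.35 ± 0.10, adjusted p = 0.00418. HLA-B gave 0.27 ± 0.15, adjusted p = 0.199 and HLA-C 0.09 ± 0.08, adjusted p = 0.406, neither of which passed. CXCL10, an interferon-induced chemokine, was higher by 0.89 ± 0.23, adjusted p = 0.00291 and ISG20, an exonuclease, by 0.84 ± 0.16, adjusted p = 0.000116.

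The 3 lower genes of that list were DTX3L, TRIM14 and TRIM5. DTX3L, the ligase that acts with PARP9, was lower, at -0.42 ± 0.12, adjusted p = 0.00476, TRIM14 at -0.41 ± 0.08, adjusted p = 0.000151 and TRIM5 at -0.26 ± 0.09, adjusted p = 0.0332. Of the sensors, MAVS, the mitochondrial adaptor of IFIH1 and DDX58, was lower, at -0.38 ± 0.11, adjusted p = 0.00512. Differences are log2 over both control media from limma, with standard errors and Benjamini-Hochberg adjustment across all genes.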
